A study of Homo sapiens with 12 samples.

Results

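This report covers DKK1 and 9 genes of the canonical Wnt pathway in HGC-27, a human cell line from a gastric cancer. The genes were taken by symbol from a given list, as the rows whose Ensembl identifiers map to DKK1, LRP5, LRP6, CTNNB1, AXIN1, AXIN2, TCF7L2, TCF7, LEF1 and APC. All 10 were found among the 20345 rows of the expression table, and all 10 had a mean of at least 1 FPKM (fragments scaled to the length of the transcript and to the mapped total of the library), the level needed to enter a test. RNA was sequenced in 12 libraries that form 4 groups of 3. WT cells (titled NC, with no edit named) and cells labelled TEAD4KO were each sequenced with no treatment and with GLUP, a cyclic peptide made to bind the transcription factor TEAD4 and to draw TEAD4 molecules together. All 4 groups share the same line and culture medium, and the study's methods give the peptide's stock buffer as the negative control. Whether the TEAD4KO cells were 1 clone or a pool is not given in the sources used here. The study's methods speak of biological replicates but do not tie them to these libraries, and the labels do not say that the 3 libraries of a group came from separate cultures. P-values then measure the spread between these libraries, which may be technical. DKK1 heads a list that was selected on measured values of these libraries, and which values these were is not recorded. Its levels and differences are therefore given as a description, with no test.

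Canonical Wnt signalling controls how much β-catenin reaches the nucleus. Without a Wnt ligand, a destruction complex built on the scaffolds AXIN1, AXIN2 and APC marks β-catenin, the product of CTNNB1, for breakdown. A ligand that binds a Frizzled receptor and the co-receptor LRP5 or LRP6 halts this breakdown, and β-catenin then joins the DNA-binding factors TCF7, LEF1 and TCF7L2 at their target genes. DKK1 is a secreted inhibitor that binds LRP5 and LRP6 and closes the pathway at the cell surface. Several pathway genes, among them AXIN2, LEF1, TCF7 and DKK1 itself, are also well known targets of β-catenin, so they form feedback loops. In the stomach and gut the pathway is known for maintaining stem cells, and mutations of APC or CTNNB1 are known to drive tumours there.

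The targeted transcript was not lower in the libraries labelled TEAD4KO. TEAD4 ranged from 24.4 to 25.8 FPKM in untreated WT libraries and from 27.2 to 30.1 FPKM in untreated libraries labelled TEAD4KO. With GLUP it ranged from 22.9 to 23.8 FPKM in WT and from 26.0 to 29.4 FPKM in TEAD4KO, a difference of 0.23 ± 0.063 (SE, n = 3 per group) on the log2(FPKM + 1) scale with an adjusted p of 0.0479 (limma). That call was lost in 8 of 12 fits with a library left out (adjusted p up to 0.177, without TEAD4KO GLUP replicate 15), with the replicate number as a block (adjusted p = 0.0627) and after correction for transcript length and GC content (0.074, adjusted p = 0.450). The protein was not measured in these files, and the genotype is used below only as labelled. The libraries labelled TEAD4KO also differed from WT in their composition. They listed 4826 to 5195 rows at 0, against 4292 to 4535 in WT libraries. Across 11077 tested genes their difference from WT without treatment had a Spearman correlation of -0.48 with transcript length and 0.286 with GC content. These are correlations across genes, which are not independent replicates. Sequencing depth is unknown, and fewer cells of a kind and less RNA per cell cannot be told apart in bulk libraries. The labels name the cells only as gastric cancer cells. Of the fixed markers of gastric mucosa, TFF1, TFF2 and GKN1 were listed at 0 in all 12 libraries and MUC5AC, MUC6 and CLDN18 reached at most 0.284 FPKM. The epithelial markers EPCAM, KRT18 and KRT19 reached at most 0.290 FPKM. CDH1 (2.04 to 3.68 FPKM) and KRT8 (3.78 to 9.13 FPKM) were low. The mesenchymal marker VIM lay between 1238 and 1704 FPKM, and the fibroblast markers COL1A1 (155 to 304 FPKM) and DCN (55.1 to 77.6 FPKM) were also high in every library. CDH2 (up to 0.149 FPKM), the immune markers PTPRC, CD3E and CD68 (up to 0.433 FPKM) and the endothelial marker VWF (up to 0.0439 FPKM) were at or near 0. The marker PECAM1 was matched to no row by symbol.

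DKK1 had the highest level of the 10 genes and was the one whose level differed in every comparison without overlap. In untreated WT cells it measured 74.1, 85.7 and 73.1 FPKM in replicates 1, 2 and 3. In WT cells with GLUP it measured 109.7, 113.5 and 114.3 FPKM in replicates 14, 15 and 16. All 3 treated libraries thus lay above all 3 untreated ones. Cells labelled TEAD4KO held 98.1, 110.1 and 119.1 FPKM without GLUP, and the same cells with GLUP held 154.8, 166.6 and 139.9 FPKM. Here too the treated libraries lay above the untreated ones without overlap. The order of the group means was untreated WT (77.7 ± 7.0 FPKM, SD, n = 3), untreated TEAD4KO (109.1 ± 10.6 FPKM), WT with GLUP (112.5 ± 2.47 FPKM) and TEAD4KO with GLUP (153.8 ± 13.4 FPKM). The 2 groups in the middle of this order overlapped, while the lowest and the highest group stood clear of them.

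On the log2(FPKM + 1) scale DKK1 was higher with GLUP by 0.53 ± 0.085 in WT (SE, n = 3 per group, 1.45-fold) and by 0.49 ± 0.085 in TEAD4KO (1.41-fold). Over both genotypes the difference was 0.51 ± 0.058 (n = 6 per treatment, 1.43-fold). Between genotypes, TEAD4KO exceeded WT by 0.48 ± 0.085 without treatment (1.40-fold) and by 0.44 ± 0.085 with GLUP (1.36-fold). The GLUP difference in TEAD4KO minus that in WT was -0.041 ± 0.12 (SE), again as a description. Over all alternatives, leaving out each library included, the GLUP difference stayed between 0.49 and 0.60 in WT and between 0.42 and 0.56 in TEAD4KO. The genotype difference was smaller after a correction of every library for transcript length and GC content, with 0.38 ± 0.064 untreated and 0.35 ± 0.064 with GLUP. Over all alternatives it lay between 0.38 and 0.56 untreated and between 0.32 (quantile normalization) and 0.51 with GLUP. Of all 11225 tested genes, 17.3% did not overlap between GLUP and untreated libraries in WT and 6.83% in TEAD4KO, and 0.998% lay above in both genotypes, as DKK1 did. Between genotypes 25.7% of genes did not overlap without treatment and 29.5% with GLUP, and 9.82% lay above WT in both. The plot of levels by library shows these steps beside the other 9 genes.

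**Figure D1:**
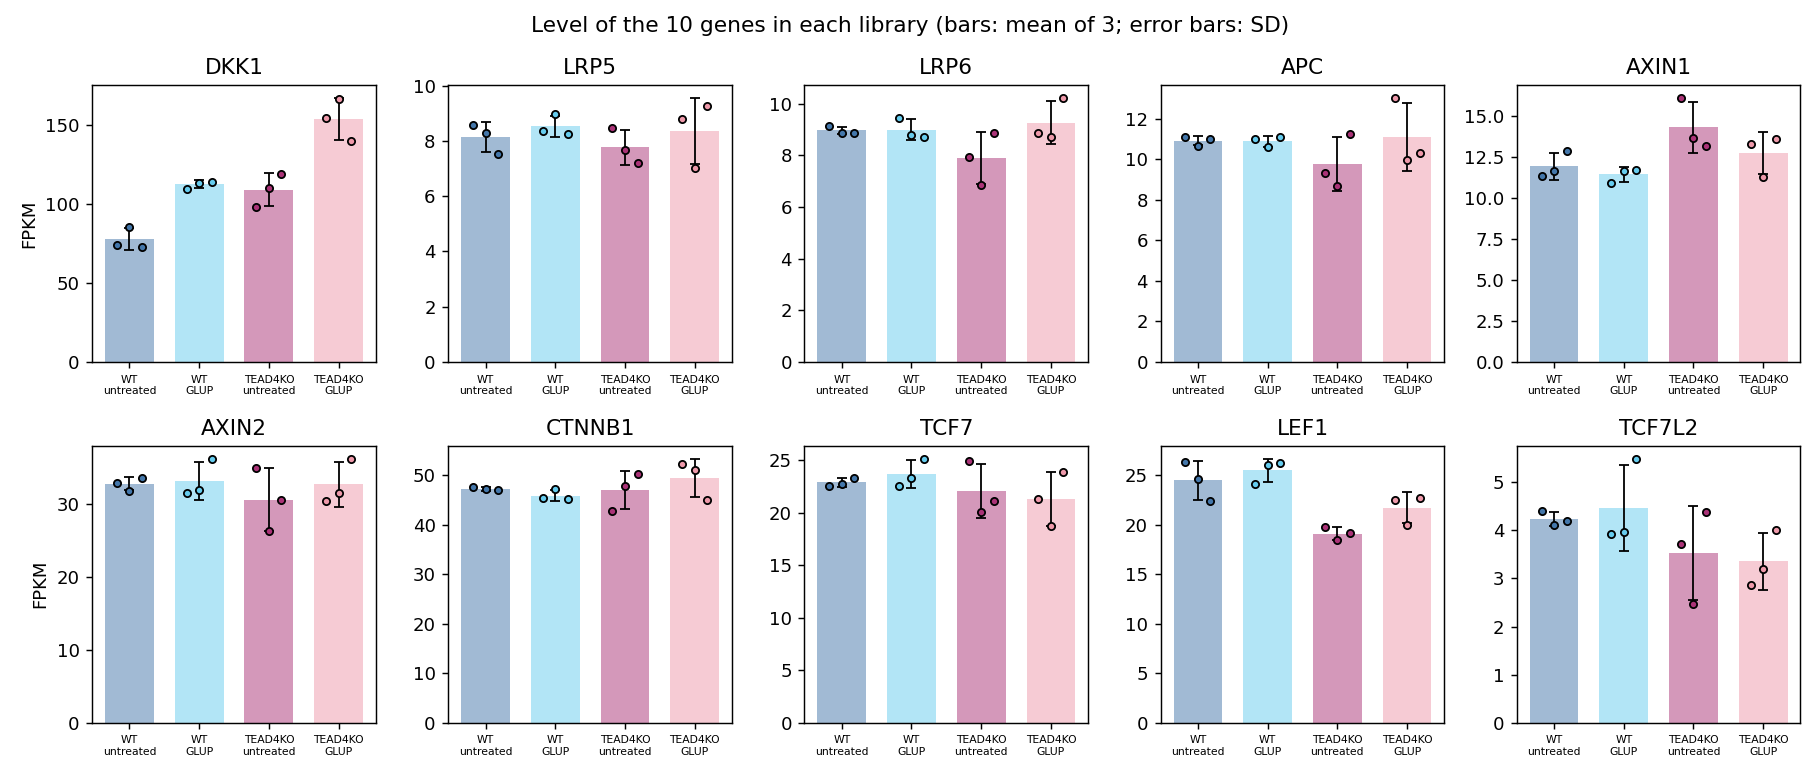
Level of the 10 genes in FPKM (vertical axes, linear from 0) in the 12 libraries, grouped by genotype and treatment on the horizontal axes. Points are libraries, bars are means of 3 libraries and error bars are SD. DKK1 steps from a mean of 77.7 FPKM in untreated WT to 153.8 FPKM in TEAD4KO with GLUP, while most other genes overlap between groups.

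The start of DKK1 is shown because it carries the letters of both kinds of motif that the study's factor and the Wnt pathway are known to read. DKK1 lies at chr10:54074041-54077802 on the plus strand of GRCh37 (GENCODE release 44 lifted to that build). The 250 bases before its RefSeq start, at chr10:52314031-52314280 on the plus strand of GRCh38.p14, were searched on both strands for the TEAD letters GGAATG and the TCF/LEF letters CTTTGA. Matches are in capitals, 5′ to 3′. The same window of SP5, a transcription factor gene and Wnt target described further on, at chr2:170715087-170715336 on the plus strand of GRCh38.p14, is printed beside it.
DKK1: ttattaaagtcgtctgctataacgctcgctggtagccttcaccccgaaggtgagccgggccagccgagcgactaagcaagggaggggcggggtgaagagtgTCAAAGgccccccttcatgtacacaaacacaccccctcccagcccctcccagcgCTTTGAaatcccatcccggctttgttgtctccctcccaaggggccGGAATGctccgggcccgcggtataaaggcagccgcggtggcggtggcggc
SP5: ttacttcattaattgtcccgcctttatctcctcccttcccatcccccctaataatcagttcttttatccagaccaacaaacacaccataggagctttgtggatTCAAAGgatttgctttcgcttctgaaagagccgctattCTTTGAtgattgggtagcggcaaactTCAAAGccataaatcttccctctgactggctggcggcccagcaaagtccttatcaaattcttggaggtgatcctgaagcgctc

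The DKK1 window held 1 TEAD match, 50 to 45 bases before the start, and 2 TCF/LEF matches, at 149 to 144 bases (TCAAAG, the other strand) and 95 to 90 bases (CTTTGA). The SP5 window held 3 TCF/LEF matches and 0 TEAD matches. Of 35116 RefSeq promoter windows of the same length, 11.9% held the TEAD letters, 11.2% the TCF/LEF letters and 1.53% both. The promoter table had entries for 8 of the 10 genes, with 12 windows in all, and LRP6 and AXIN2 are the others. Among the 8, APC also held the TEAD letters (86 to 81 bases before 1 of its starts), and DKK1 was the single gene with the TCF/LEF letters. Of 74 Wnt pathway genes with a promoter entry (96 windows), 6 held the TEAD letters and 4 the TCF/LEF letters. DKK1 alone held both kinds, and at 1.53% of all windows 1 such gene could appear in a list of this size. A match is a run of letters in a reference sequence, and binding was not measured here.

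Several genes followed the level of DKK1 closely over the 12 libraries. Likeness was measured by Pearson's r of log2(FPKM + 1) over 12 libraries, as a description, since all points share their groups. The 5 highest were ACTA2, a smooth muscle actin (r = 0.972), FHL1, a LIM domain protein (r = 0.964), MB21D2 (r = 0.953), BMP4, a ligand of the bone morphogenetic protein pathway (r = 0.948) and RDH10, a retinol dehydrogenase (r = 0.921). ACTA2 went in its group means from 70.8 ± 6.07 FPKM (SD, n = 3) in untreated WT to 107.5 ± 9.71 FPKM in TEAD4KO with GLUP, and BMP4 went from 48.8 ± 4.33 to 77.6 ± 4.14 FPKM. With the group means removed, r with DKK1 was 0.782 for ACTA2, 0.841 for FHL1 and 0.723 for BMP4, against 0.361 for MB21D2 and 0.320 for RDH10. The genes were picked for their r over these same libraries, so the values are not independent of that choice. The 5 genes most opposed to DKK1 were PRPSAP1 (r = -0.903), MAP1A (r = -0.889), BCORL1 (r = -0.886), FGFR2, a fibroblast growth factor receptor (r = -0.883), and GRIK3, a glutamate receptor subunit (r = -0.880). With the group means removed, the r of these opposed genes ran from -0.752 (BCORL1) to -0.292 (FGFR2). FGFR2 went from 11.0 ± 0.552 FPKM in untreated WT to 6.93 ± 0.192 FPKM in TEAD4KO with GLUP. Among the 9 other pathway genes, r with DKK1 ran from -0.443 (TCF7) to 0.423 (CTNNB1).

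**Figure D2:**
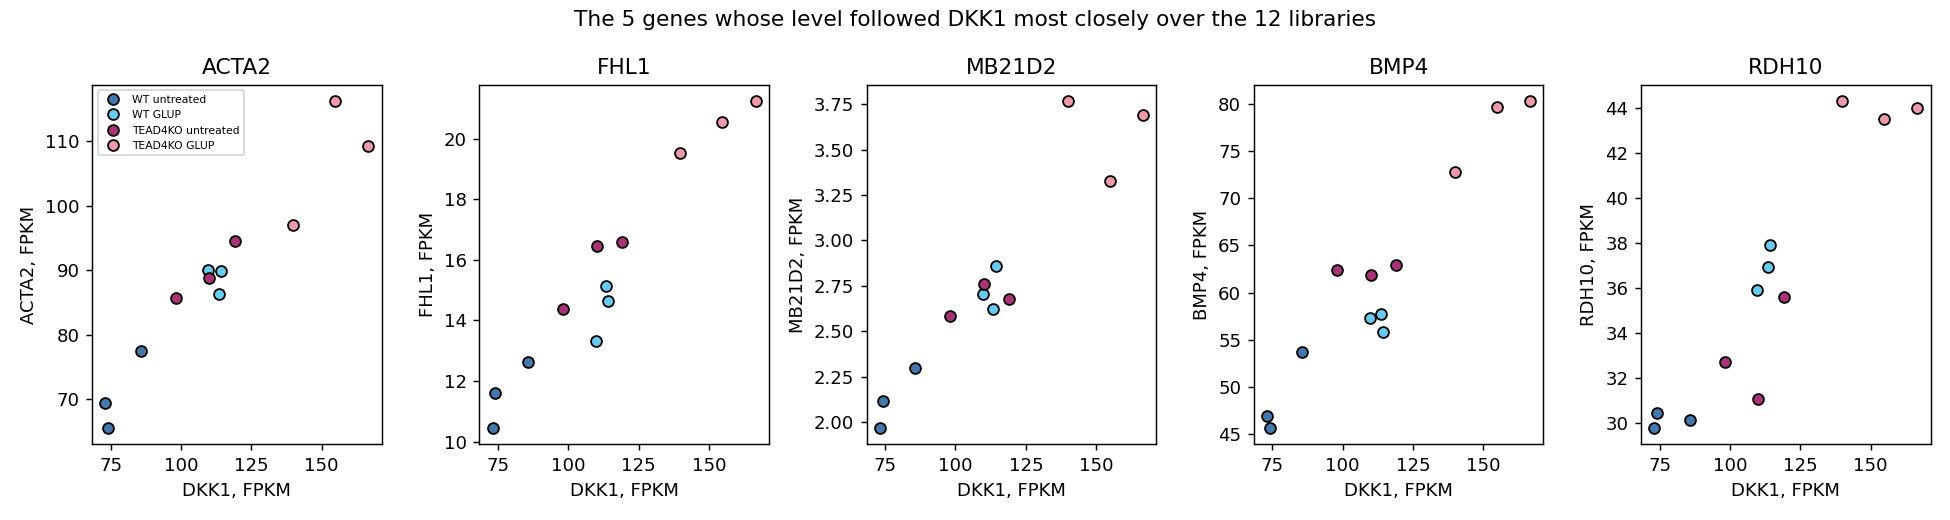
FPKM of the 5 genes most like DKK1 (vertical axes) against DKK1 in FPKM (horizontal axes), 1 point per library, coloured by group. In each panel the untreated WT libraries sit lowest on both axes or close to it and the TEAD4KO libraries with GLUP highest, with r from 0.921 (RDH10) to 0.972 (ACTA2).

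The co-receptors that DKK1 binds were called in none of the comparisons. LRP5, a single-pass co-receptor for Wnt (chr11:68080059-68216743 on GRCh37), measured 8.58, 8.28 and 7.53 FPKM in untreated WT, 8.35, 8.97 and 8.26 FPKM in WT with GLUP, 8.45, 7.67 and 7.19 FPKM in untreated TEAD4KO and 8.78, 7.02 and 9.28 FPKM in TEAD4KO with GLUP. All 4 groups of LRP5 overlapped. The related co-receptor LRP6 (chr12:12268959-12419978) measured 9.13, 8.89 and 8.88 FPKM in untreated WT and 7.94, 6.86 and 8.87 FPKM in untreated TEAD4KO. These 2 groups of LRP6 did not overlap, as was so for 25.7% of all tested genes. Their nearest libraries read 8.87 and 8.88 FPKM, and the difference of -0.17 ± 0.090 had an adjusted p of 0.291 (limma). With GLUP, LRP6 measured 9.46, 8.80 and 8.71 FPKM in WT and 8.87, 8.71 and 10.2 FPKM in TEAD4KO. GLUP shifted LRP6 in TEAD4KO by 0.21 ± 0.090 (adjusted p = 0.758) and in WT by 0.0032 ± 0.090 (adjusted p = 0.999). LRP5 shifted by 0.089 ± 0.098 and 0.062 ± 0.098 in the same 2 comparisons. The 95% intervals for GLUP over both genotypes were -0.067 to 0.22 for LRP5 and -0.036 to 0.25 for LRP6, on the log2 scale and not adjusted for the number of genes.

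None of the 3 scaffolds of the destruction complex was called in any comparison. APC (chr5:112043215-112181936) measured 11.1, 10.7 and 11.0 FPKM in untreated WT, 11.0, 10.6 and 11.1 FPKM in WT with GLUP, 9.33, 8.71 and 11.3 FPKM in untreated TEAD4KO and 13.0, 9.97 and 10.3 FPKM in TEAD4KO with GLUP. The WT libraries of APC lay close together, whereas those labelled TEAD4KO spread more widely around them. AXIN1 (chr16:337440-402723), the constitutive scaffold, measured 11.3, 11.6 and 12.9 FPKM in untreated WT and 16.1, 13.6 and 13.2 FPKM in untreated TEAD4KO. With GLUP it measured 10.9, 11.7 and 11.7 FPKM in WT and 13.3, 11.2 and 13.6 FPKM in TEAD4KO. Without treatment the AXIN1 groups did not overlap, as was so for 25.7% of all tested genes. Their difference of 0.24 ± 0.091 had an adjusted p of 0.145 (limma). AXIN2 (chr17:63524681-63557766), the scaffold that is also a feedback target, measured 32.9, 31.8 and 33.6 FPKM in untreated WT and 31.5, 31.8 and 36.2 FPKM in WT with GLUP. In TEAD4KO it measured 34.9, 26.3 and 30.5 FPKM without GLUP and 30.4, 31.5 and 36.2 FPKM with the peptide. All groups of AXIN2 overlapped. Its GLUP difference over both genotypes was 0.057 ± 0.066 (adjusted p = 0.910), with a 95% interval of -0.085 to 0.20. The same intervals were -0.24 to 0.028 for AXIN1 and -0.074 to 0.24 for APC.

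CTNNB1, which encodes β-catenin (chr3:41236232-41301587), had the smallest error of the 4 nuclear effectors (SE 0.070). It measured 47.7, 47.2 and 47.0 FPKM in untreated WT, 45.4, 47.2 and 45.2 FPKM in WT with GLUP, 42.9, 47.8 and 50.4 FPKM in untreated TEAD4KO and 52.2, 51.2 and 45.0 FPKM in TEAD4KO with GLUP. The groups overlapped in every comparison, and the GLUP difference over both genotypes was 0.016 ± 0.049 (95% interval -0.090 to 0.12). RNA levels do not show the amount or location of β-catenin protein. TCF7 (chr5:133450372-133487556) measured 22.6, 22.8 and 23.4 FPKM in untreated WT, 22.6, 23.3 and 25.2 FPKM in WT with GLUP, 25.0, 20.1 and 21.2 FPKM in untreated TEAD4KO and 21.4, 18.7 and 23.9 FPKM in TEAD4KO with GLUP. Its groups overlapped too. TCF7L2 (chr10:114710006-114927437), the lowest of the 10, measured 4.41, 4.11 and 4.19 FPKM in untreated WT and 3.93, 3.97 and 5.49 FPKM in WT with GLUP. In TEAD4KO it measured 3.72, 2.47 and 4.39 FPKM without GLUP and 2.86, 3.20 and 4.01 FPKM after it. TCF7L2 had the widest errors of the 10 genes, with -0.23 ± 0.16 (adjusted p = 0.419) between genotypes untreated and -0.32 ± 0.16 (adjusted p = 0.230) with GLUP.

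LEF1, the lymphoid enhancer factor that serves as both partner and target of β-catenin (chr4:108968701-109090112), was the one gene of the other 9 that passed the test, in 1 comparison. It measured 26.4, 24.6 and 22.4 FPKM in untreated WT and 19.7, 18.4 and 19.1 FPKM in untreated TEAD4KO. Every untreated TEAD4KO library thus lay below every untreated WT library. Groups were apart, in either direction, for 25.7% of all tested genes in this comparison. LEF1 fell by 0.34 on the log2 scale (SE 0.074, n = 3 per group, 0.790-fold, adjusted p = 0.0191, limma). With GLUP it measured 24.1, 26.0 and 26.3 FPKM in WT and 22.5, 19.9 and 22.7 FPKM in TEAD4KO. The groups again did not overlap, as was so for 29.5% of all tested genes, but the difference of -0.22 ± 0.074 missed the threshold (adjusted p = 0.0924). Leaving out 1 library at a time, the untreated call was lost without TEAD4KO untreated replicate 2 (adjusted p = 0.0674), WT untreated replicate 1 (adjusted p = 0.0920) or WT untreated replicate 2 (adjusted p = 0.0691). It held after the correction for length and GC content (-0.35 ± 0.060, adjusted p = 0.0174), but not with the replicate number as a block in the same fit (adjusted p = 0.101). GLUP shifted LEF1 in TEAD4KO by 0.18 ± 0.074, again with no overlap of the libraries (6.83% of all tested genes), and in WT by 0.059 ± 0.074. Neither GLUP difference passed (adjusted p = 0.758 and 0.999), and the interaction of 0.12 ± 0.10 had an adjusted p of 1.00. Between untreated genotypes LEF1 was thus lower where DKK1 was higher, whereas with GLUP in TEAD4KO both were higher. Over the 12 libraries r of LEF1 with DKK1 was -0.320, and a link between them was not tested.

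Of the 9 genes besides DKK1, LEF1 alone was called, in 1 comparison. With GLUP 0 of 9 were called in WT, in TEAD4KO and over both genotypes, against 0.00891%, 0.0445% and 0.303% of all tested genes. At such shares few or no calls could appear among 9 genes. At an unadjusted p under 0.05 the counts were 0, 2 and 1 of 9, where 3.43%, 6.38% and 7.54% of all tested genes were. Across all settings tried, the lowest adjusted p of any of the 9 genes in these 3 GLUP comparisons was 0.303. Between genotypes 1 of 9 was called without treatment, where 5.42% of all genes were, and 0 of 9 with GLUP, where 5.84% were. The interaction called 0 of 9, against 0.00891% of all genes. The median difference of the 9 genes was 0.057 for GLUP over both genotypes, -0.11 between untreated genotypes and -0.022 between genotypes with GLUP, beside -0.0040, 0.023 and -0.0039 over all tested genes. Without treatment 8 of the 9 had a negative difference and AXIN1 a positive one. The share of negative differences over all tested genes is not given here. Over those genes this difference fell with transcript length (Spearman correlation -0.48), and the sign of CTNNB1 changed after the correction for length and GC content. The comparisons share groups, so their counts are not independent of each other. The plot of differences sets the 10 genes side by side.

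**Figure D3:**
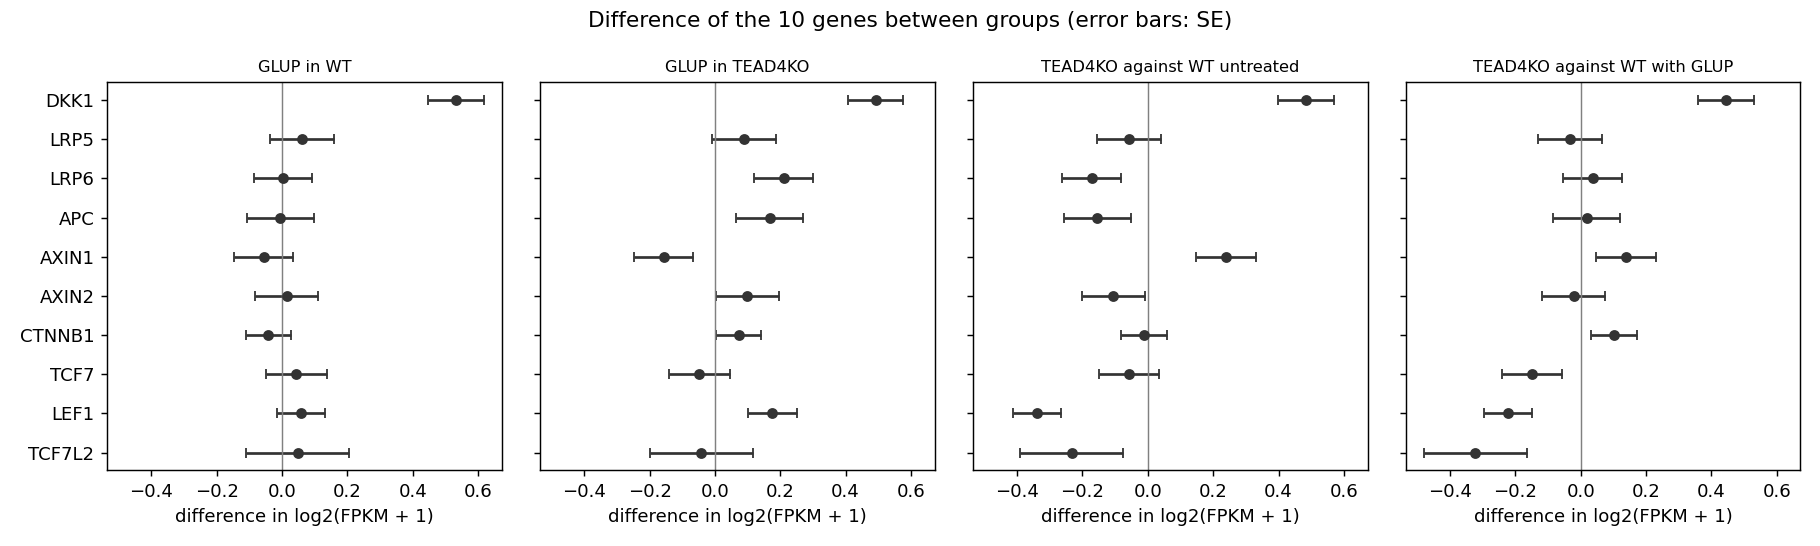
Difference between groups in log2(FPKM + 1) (horizontal axes) for the 10 genes (vertical axis) in 4 comparisons of 3 against 3 libraries. Points are fitted differences and error bars are SE. DKK1 sits between 0.44 and 0.53 in every panel, and LEF1 at -0.34 in untreated TEAD4KO is the lowest point of the 4 panels.

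A wider list of 103 Wnt pathway genes, DKK1 included, placed these levels in context. Because FPKM is scaled by length, levels can be set beside each other. In untreated WT cells 65 of the 103 genes averaged at least 1 FPKM and 35 at least 10 FPKM. The inner parts of the pathway were the most complete. All 14 genes of the destruction complex and its regulators (median 11.7 FPKM), all 5 dishevelled genes and inhibitors (median 16.7 FPKM) and 13 of 14 nuclear effectors (median 11.2 FPKM) reached 1 FPKM. Of the ligands 6 of 19 did, of the antagonists 6 of 17, of the receptors 11 of 15 and of the R-spondin module, which guards receptor turnover, 2 of 9.

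Some of these genes are named here after their levels were seen. WNT5A (29.0 ± 0.347 FPKM, SD, n = 3) and WNT11 (23.6 ± 1.93 FPKM), ligands known mainly for signalling without β-catenin, led the Wnt ligands. Among the antagonists DKK1 stood first at 77.7 FPKM, followed by the membrane inhibitor APCDD1 (58.0 ± 1.71 FPKM) and the secreted SFRP4 (40.3 ± 2.04 FPKM). Its relatives DKK3, DKK2 and DKK4 had means of 0.926, 0.369 and 0.0501 FPKM, and DKK3 was the one of them that passed the filter for tests. Common targets of β-catenin split in level. MYC (108.3 ± 2.41 FPKM), CCND1 (78.6 ± 1.52 FPKM), AXIN2 (32.8 ± 0.897 FPKM) and NKD1 (27.4 ± 2.18 FPKM) were high. The gut stem cell markers LGR5 (at most 0.0276 FPKM in any library) and ASCL2 (listed at 0 in all 12) were not, and RNF43, a ligase that removes Frizzled receptors, peaked at 0.346 FPKM.

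**Figure D4:**
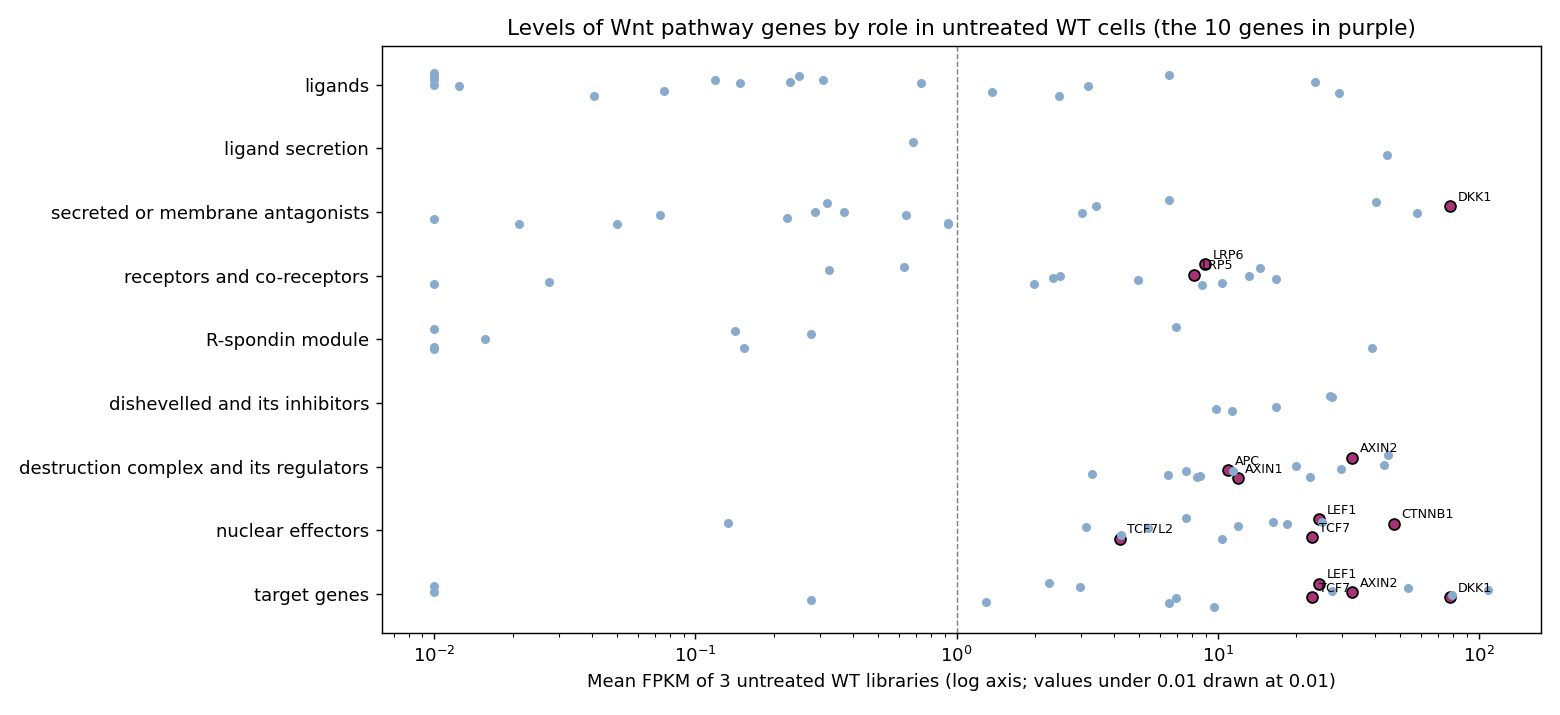
Mean FPKM over 3 untreated WT libraries (horizontal log axis, means under 0.01 FPKM drawn at 0.01) of 103 Wnt pathway genes by role (vertical axis). Each point is a gene, genes with 2 roles appear in both, the 10 genes described here are purple and the dashed line marks 1 FPKM. Destruction complex genes all lie right of the line, while 13 of 19 ligands lie left of it.

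GLUP called none of the wider list. Of its 102 genes besides DKK1, 66 passed the filter, and 0 of 66 were called in WT, in TEAD4KO or over both genotypes (limma), with 4, 6 and 8 of 66 at an unadjusted p under 0.05. Over all tested genes 0.00891%, 0.0445% and 0.303% were called, so few or no calls could appear in a list of this size. An unadjusted p under 0.05 was reached by 3.43%, 6.38% and 7.54% of all tested genes. These shares are smaller than those of the list each time, and that excess was not tested. After the correction for length and GC content 1 gene was called over both genotypes, CD44, an adhesion receptor and target gene (0.20, adjusted p = 0.0286). The median difference of the 66 genes over both genotypes was 0.0053, beside -0.0040 for all tested genes. Their differences ran from -0.31 to 0.22. The lower end was SP5, which measured 2.48, 2.47 and 2.30 FPKM in untreated TEAD4KO and 1.51, 1.35 and 0.977 FPKM in TEAD4KO with GLUP. Those groups did not overlap, as was so for 6.83% of all tested genes, but the difference of -0.59 ± 0.12 had an adjusted p of 0.160. In WT, SP5 measured 1.64, 1.14 and 1.12 FPKM without GLUP and 1.10, 1.21 and 1.43 FPKM after it, which overlap. The interaction for SP5 was -0.56 ± 0.17, with an unadjusted p of 0.00595 and an adjusted p of 1.00.

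Between untreated genotypes 5 of the 66 genes were called, 4 higher in TEAD4KO and 1 lower. Over all tested genes 4.92% were called higher and 0.499% lower. The list's median was -0.052, beside 0.023 over all tested genes. The lower gene was LEF1. FZD2, a Frizzled receptor, measured 9.51, 8.35 and 8.36 FPKM in WT and 14.8, 13.6 and 13.8 FPKM in TEAD4KO, a rise of 0.63 ± 0.078 (adjusted p = 0.00167). KREMEN2, a receptor that works with DKK proteins to remove LRP6 from the surface, measured 3.60, 3.44 and 3.23 FPKM in WT and 6.70, 5.11 and 6.05 FPKM in TEAD4KO, a rise of 0.65 ± 0.15 (adjusted p = 0.0286). SP5 rose by 0.58 ± 0.12 (adjusted p = 0.0160). WNT11 measured 25.8, 22.2 and 22.9 FPKM in WT and 32.7, 29.5 and 30.4 FPKM in TEAD4KO, a rise of 0.37 ± 0.10 (adjusted p = 0.0452). None of these groups overlapped, as was so for 25.7% of all tested genes in this comparison.

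These 5 calls differed in how firmly they stood. The libraries labelled TEAD4KO differed from WT with length and GC content, and after correction for both the differences were 0.60 for FZD2 (adjusted p = 0.00299) and -0.35 for LEF1 (adjusted p = 0.0174), which kept their calls. SP5 came to 0.30 (adjusted p = 0.156), KREMEN2 to 0.34 (adjusted p = 0.202) and WNT11 to 0.21 (adjusted p = 0.225), which lost theirs, while CCND1 gained one (-0.28, adjusted p = 0.0412). With the replicate block added to that correction FZD2 (adjusted p = 0.067) and LEF1 (adjusted p = 0.101) lost theirs as well. Without the correction FZD2 held with each of the 12 libraries left out in turn, with adjusted p up to 0.0146. Leaving out a GLUP library kept its difference at 0.63 and changed only the pooled spread. SP5 lost its call without TEAD4KO untreated replicate 2 (adjusted p = 0.0543), WT untreated replicate 2 (adjusted p = 0.0702) or WT untreated replicate 3 (adjusted p = 0.0945). KREMEN2 lost it without TEAD4KO untreated replicates 1 or 3 or any of the 3 untreated WT libraries (adjusted p from 0.0509 to 0.127), and with no filter on low values (adjusted p = 0.0833). Of the 12 fits with a library left out, WNT11 kept its call in those without TEAD4KO GLUP replicate 14 or 16, and reached adjusted p = 0.176 without WT untreated replicate 3. WNT11 also lost its call after median-ratio scaling (adjusted p = 0.0725), after quantile normalization (adjusted p = 0.0686) and with no filter (adjusted p = 0.101). Another scaling also moved the balance of all calls. Of the 608 genes called, 90.8% were higher in TEAD4KO, against 70.7% of 399 after median-ratio scaling and 59.2% of 603 after quantile normalization.

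With GLUP, 3 of the 66 genes were called between genotypes, 2 higher in TEAD4KO and 1 lower, where 4.91% of all tested genes were called higher and 0.935% lower. FZD2 measured 8.07, 8.30 and 8.72 FPKM in WT and 13.2, 11.2 and 12.1 FPKM in TEAD4KO, a rise of 0.49 ± 0.078 (adjusted p = 0.00339). WNT11 measured 19.7, 22.4 and 19.7 FPKM in WT and 31.3, 27.8 and 23.0 FPKM in TEAD4KO, a rise of 0.38 ± 0.10 (adjusted p = 0.0392). CCND1, the cyclin of the G1 phase, measured 81.2, 78.5 and 79.2 FPKM in WT and 63.1, 58.4 and 70.3 FPKM in TEAD4KO and fell by 0.32 (SE 0.086, adjusted p = 0.0487). The groups of all 3 genes were apart, as were those of 29.5% of all tested genes. KREMEN2 and SP5 were not called here. KREMEN2 measured 4.47, 4.09 and 4.37 FPKM in WT and 6.90, 3.74 and 4.24 FPKM in TEAD4KO, a difference of 0.13 ± 0.15 (adjusted p = 0.632). For SP5 it was 0.017 ± 0.12 (adjusted p = 0.943).

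FZD2 again held without each library (adjusted p up to 0.0245) and after the correction for length and GC content (0.51, adjusted p = 0.00406). CCND1 kept its call in 3 of 12 such fits, without TEAD4KO GLUP replicate 16 or TEAD4KO untreated replicate 1 or 2, and reached adjusted p = 0.181 without TEAD4KO GLUP replicate 15. With no filter it lost the call (adjusted p = 0.102). WNT11 lost its call in 8 of 12 such fits, with adjusted p up to 0.171 without TEAD4KO GLUP replicate 14, after the correction (0.26, adjusted p = 0.122), with no filter (adjusted p = 0.0903) and in a fit of only the groups compared (adjusted p = 0.0869). The GLUP libraries of the same replicate number deviated together between genotypes, and with that number as a block 1206 genes were called in place of 656, with 66.3% in place of 84.0% higher in TEAD4KO. The same 3 list genes were called with the block, at adjusted p of 0.0149 (FZD2), 0.0378 (WNT11) and 0.0257 (CCND1). After quantile normalization 63.0% of 809 called genes were higher, and LEF1 and ROR2 joined the list's calls, both lower in TEAD4KO (adjusted p = 0.0339 and 0.0386). The plot by role shows that the called genes fell in different parts of the pathway.

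**Figure D5:**
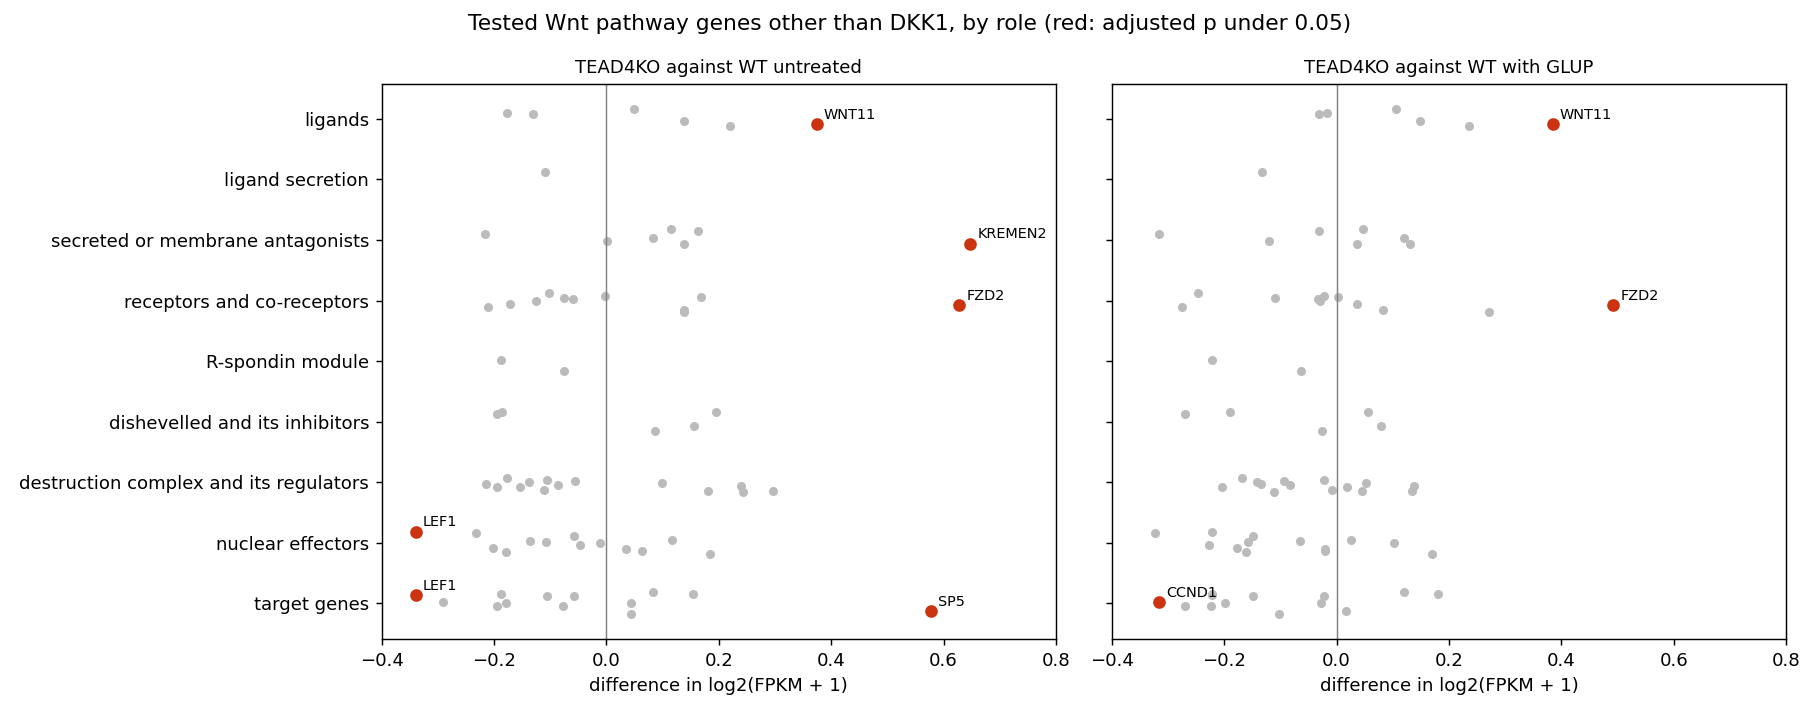
Difference between genotypes in log2(FPKM + 1), TEAD4KO minus WT (horizontal axes), of the 66 tested Wnt pathway genes other than DKK1 by role (vertical axis), untreated on the left and with GLUP on the right. Red points with names have an adjusted p under 0.05 (limma), grey points do not, and genes with 2 roles appear in both. FZD2 is red at 0.63 and 0.49, and most of the other genes lie within 0.3 of 0.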

How the data were processed

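RNA-seq of 12 HGC-27 libraries was deposited by the authors as FPKM, with a column for each library, a row for each Ensembl gene and replicates kept apart. The submitters' processing notes name HISAT2, Cufflinks, RSEM and hg19 without versions or roles, and the study's methods give an online cloud platform. FPKM keeps differences in length and GC content between libraries. The values used are FPKM and not read counts, so depth is unknown, no counting interval is given and precision comes from the spread between libraries.

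Symbols matched 94.2% of rows. Tests used log2(FPKM + 1) and the 11225 rows that averaged 1 FPKM or more. One 4-group model was fitted with limma 3.58.1 in R 4.3.3 (lmFit, eBayes with trend), and GLUP over both genotypes in a model of genotype plus treatment. Tests were two-sided with Benjamini-Hochberg adjustment over all rows of a comparison, and a call was an adjusted p under 0.05. A difference on this scale understates the change of low genes. The script was tested on simulated data.

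The members, the Wnt list and the tests were chosen with earlier results of these data known. Genes named are the 10 members, the up to 5 called list genes with the largest rise and fall in each comparison, the 5 genes most and least correlated with DKK1, and TEAD4. Others are named after their values were seen.

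Alternatives were a pseudocount of 0.1, no filter on low values (17969 rows), median-ratio scaling, quantile normalization, a GC and length correction (splines with 5 degrees of freedom), a fit of only the groups compared, a fold limit of 2, the replicate number as a block with and without that correction, and leaving out each library. Leaving out a library outside the 2 groups compared changes the pooled spread but not the difference. Replicate numbers come from the sample titles. Deviations of same-numbered libraries from their group means correlated between genotypes at 0.106, 0.152 and 0.336 for GLUP, all over 0.1. Of 6 differently numbered GLUP pairs, 2 also passed 0.1, and both lay above the 0.106 of replicate 14. Same-numbered untreated libraries correlated at -0.057, 0.203 and -0.015. The main fits held no term for pairing, and the replicate block was an alternative for untreated and GLUP libraries alike. Positions are from GENCODE release 44 lifted to GRCh37, and promoters from RefSeq on GRCh38.p14.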

Additional observations from a re-analysis of the deposited data

How the results depend on the processing

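The GLUP calls were few under every setting. In WT the 1 gene called became 2 after quantile normalization or the GC and length correction, 0 with a fold limit of 2, and 0 to 1 with a library left out. In TEAD4KO 5 genes became 1 in a fit of only the groups compared, 1 with the fold limit, and 1 to 6 with a library left out. Over both genotypes 34 became 22 with no filter, 56 after the GC and length correction, 0 with the fold limit, and 15 to 41 with a library left out. In the last comparison the Wnt list went from 0 to 1 after the GC and length correction.

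Between untreated genotypes 608 calls became 394 with no filter, 399 after median-ratio scaling, 223 after the GC and length correction, 382 with only the groups compared, 4 with the fold limit, 5 with both that correction and the replicate block, and 119 (without WT untreated replicate 3) to 1186 (without TEAD4KO untreated replicate 1) with a library left out. The block alone gave 653. The untreated libraries share only a number. In both treatments, not every library correlated best with its own number. With GLUP 656 became 419 after the GC and length correction, 6 with the fold limit, 1206 with the replicate block, 572 with the block and the correction, and 196 (without WT GLUP replicate 16) to 1952 (without TEAD4KO GLUP replicate 16) with a library left out. Of the Wnt list, 5 untreated calls became 3 with no filter, 3 after the correction, 0 with the block and the correction, and 1 to 7 with a library left out. The 3 calls with GLUP became 1 with no filter, 5 after quantile normalization, 5 after the correction, and 1 to 6 with a library left out. The block alone changed no call of a Wnt gene named here. Of TEAD4, it ended the call with GLUP. With block and correction together FZD2 (adjusted p = 0.067) and LEF1 (adjusted p = 0.101) lost their untreated calls. The causes of these shifts were not tested beyond what each alternative changes.

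Of the 10 genes, small differences changed sign. LRP6 with GLUP in WT was -0.019, -0.022 and -0.047 after median-ratio scaling, quantile normalization and the GC and length correction. After that correction CTNNB1 was -0.0016 for GLUP over both genotypes and 0.019 between untreated genotypes (also with the block), and AXIN2 was -0.0030 for GLUP in WT (-0.0088 after median-ratio scaling) and 0.024 between genotypes with GLUP (also with the block). TCF7L2 for GLUP over both genotypes was -0.0058 after quantile normalization and -0.0043 after the correction, and TCF7 was 0.011 after quantile normalization. With a library left out, sign changes gave these ranges. GLUP in WT ran from -0.030 to 0.023 for LRP6, -0.047 to 0.050 for AXIN2, -0.082 to 0.12 for TCF7L2, -0.0010 to 0.11 for LEF1 and -0.020 to 0.013 for APC. GLUP in TEAD4KO ran from -0.0020 to 0.20 for AXIN2, -0.22 to 0.097 for TCF7L2 and -0.13 to 0.042 for TCF7. GLUP over both genotypes ran from -0.019 to 0.038 for CTNNB1, -0.071 to 0.070 for TCF7L2 and -0.033 to 0.043 for TCF7. Between untreated genotypes CTNNB1 ran from -0.061 to 0.053 and TCF7 from -0.15 to 0.0054. With GLUP the genotype difference ran from -0.10 to 0.075 for LRP5, -0.029 to 0.075 for LRP6, -0.095 to 0.041 for AXIN2 and -0.093 to 0.085 for APC. None of these differences was called under any setting, and DKK1 kept its direction in each comparison of 2 groups under all of them. Where leaving out a library left 2 in a group, the spread was pooled over all groups.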
